A study of Mus musculus with 6 samples.

Results

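A set of 10 genes of the matrix glycoprotein, elastic fibre and lysyl oxidase groups were examined in mouse liver: Fn1, Sparc, Postn, Tnc, Fbn1, Fbln5, Eln, Lox, Loxl1 and Loxl2. They were chosen by name from a list of 10 symbols, and each symbol matched 1 Ensembl gene among the 54682 rows of the count table through the GENCODE annotation of GRCm38. All 10 passed the filter on low counts and were among the 14145 genes tested. The livers came from 6 mice, 1 poly(A) RNA library each, 3 wild-type and 3 Cd44-/- (strain B6.Cg-Cd44tm1Hbg/J, a targeted allele present in every cell of the animal). All 6 mice were ethanol-exposed: they were fed Lieber-DeCarli liquid diet (5% ethanol, by volume) over 10 days, were gavaged with ethanol at 5 g/kg on day 11, and their livers were collected 9 hours after that. The comparison therefore asked how these transcripts differed between genotypes in ethanol-exposed liver; livers without ethanol were not analysed here, and the labels give neither the age of the mice nor the origin of the wild-type animals.

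The extracellular matrix of the liver holds fibrillar collagens together with glycoproteins and elastic fibres. Fibronectin, the product of Fn1, is made in large amounts by hepatocytes for the plasma and in smaller amounts by mesenchymal cells for the tissue matrix, and these pools cannot be separated in a gene count. Sparc, periostin (Postn) and tenascin-C (Tnc) are matricellular proteins that are deposited where matrix is being remodelled. In elastic fibres, fibrillin-1 (Fbn1) microfibrils guide the deposition of elastin (Eln) with the help of fibulin-5 (Fbln5), and the copper enzymes Lox, Loxl1 and Loxl2 oxidise lysines so that elastin and collagen chains become covalently crosslinked. Activated stellate cells, portal fibroblasts and vascular smooth muscle cells are the usual sources of most of these proteins in liver.

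Total counts ran from 15493009 to 19346623 per library, so a gene with 0 counts could have had up to 3 counts, or 0.155 to 0.194 CPM (counts per 1e6 library counts), by counting error alone. Cd44, the targeted gene, had 590, 175 and 568 counts in wild-type mice 1, 2 and 3 and 1, 0 and 0 counts in knockout mice 1, 2 and 3, so no library went against its genotype label (edgeR adjusted p = 0.00647; 0.0977 to 0.331 when any 1 knockout library was left out). Alb was at 63781 to 88399 CPM. Libraries numbered 2 stood apart in both genotypes in a list of vascular smooth muscle and myofibroblast markers, called smooth muscle markers below. The summed level of its 7 genes reached 115 CPM (wild-type 2) and 67.4 CPM (knockout 2). It was 17.7 and 21.1 CPM in the other wild-type and 17.1 and 11.2 CPM in the other knockout libraries. Which cells these transcripts came from was not tested. Myh11, the smooth muscle myosin, was at 40.6 and 24.9 CPM in those libraries and at 2.82 to 4.73 CPM in the other 4. Tagln, of the same list, differed little, at 0.847 and 0.500 CPM there and 0.274 to 0.760 CPM in the other 4. The summed level of 7 portal fibroblast and general fibroblast markers was also highest in the libraries numbered 2. It was 45.7 CPM (wild-type 2) and 35.5 CPM (knockout 2), against 14.7 to 19.4 CPM in the other 4 libraries. Entpd2 and Gli1, of that list, were exceptions. Entpd2 was at 7.04 CPM in wild-type 2, but its 4.65 CPM in knockout 2 lay below wild-type 3 (5.39 CPM) and level with knockout 3 (4.66 CPM). Gli1, on 1 to 10 counts, was highest in wild-type 3. Values without both libraries numbered 2 are given beside the result of each of the 10 genes.

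For 4 of the 5 genes whose levels did not overlap between genotypes, the RefSeq promoter table (GRCm38.p6) held a window, and Loxl2 had no entry. The 250 bases before the RefSeq start are shown, 5′ to 3′ on the gene's strand. These genes were picked by their values in these same livers. Where a gene had 2 starts, the one further downstream was taken, and which start is used in these livers was not tested. The Sparc and Fbn1 windows lie inside the GENCODE spans of their genes, and the Tnc window lies partly inside. The windows are chr11:55420081-55420330 (minus strand) for Sparc, chr3:54360857-54361106 (plus) for Postn, chr4:64046937-64047186 (minus) for Tnc and chr2:125506439-125506688 (minus) for Fbn1. Capitals mark matches, on either strand, to 6 motifs: the TATA box (TATANA), a GC box (GGGCGG), an AP-1 site (TGANTCA), a TEAD site (GGAATG), a SMAD box (GTCTAGAC) and the CArG box.
Sparc: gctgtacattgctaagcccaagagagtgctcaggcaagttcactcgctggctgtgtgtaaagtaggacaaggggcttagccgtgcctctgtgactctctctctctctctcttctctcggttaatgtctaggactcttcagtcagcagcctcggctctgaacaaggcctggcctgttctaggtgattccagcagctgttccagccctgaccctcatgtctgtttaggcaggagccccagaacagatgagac
Postn: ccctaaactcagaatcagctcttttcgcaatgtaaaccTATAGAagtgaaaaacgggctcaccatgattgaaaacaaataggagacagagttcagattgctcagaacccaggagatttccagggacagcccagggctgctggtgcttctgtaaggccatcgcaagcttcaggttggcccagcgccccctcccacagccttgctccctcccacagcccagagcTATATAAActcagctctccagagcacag
Tnc: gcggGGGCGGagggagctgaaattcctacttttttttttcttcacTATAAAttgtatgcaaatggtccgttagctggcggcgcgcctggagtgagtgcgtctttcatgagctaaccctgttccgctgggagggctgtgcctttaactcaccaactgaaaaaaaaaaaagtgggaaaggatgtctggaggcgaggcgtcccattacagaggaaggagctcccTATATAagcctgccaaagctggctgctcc
Fbn1: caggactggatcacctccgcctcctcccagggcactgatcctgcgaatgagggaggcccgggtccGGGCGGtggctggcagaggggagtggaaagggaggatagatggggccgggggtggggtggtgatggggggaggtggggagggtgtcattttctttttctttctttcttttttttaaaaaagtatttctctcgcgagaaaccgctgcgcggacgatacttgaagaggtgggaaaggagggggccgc

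Postn and Tnc each carried a TATA box close to the start shown, beginning at position -28 and -29. Before the other start of Tnc, further upstream, the TATA match began at -126. The window before the other start of Postn held no match. A match to TATANA, at any position and on either strand, occurred in 22.6% of the 32851 RefSeq windows of the same length. The share of windows with a match close to the start was not counted. Postn held a further match at -212 and Tnc one at -205. Fbn1 and Tnc held the GC box, at -185 and -246, a motif found in 32.7% of all windows. The Sparc window held none of the 6 motifs. No shown window matched the AP-1, TEAD, SMAD or CArG motif, which occurred in 6.75%, 12.6%, 0.167% and 1.47% of all windows. These matches describe letters in a window and are not evidence that a factor binds there.

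In the knockout livers 9 of the 10 genes had a lower mean, and Fn1 was the exception. The share of all tested genes with a lower mean was 51.1%. The median log2 fold change (knockout relative to wild-type) was -0.80 over the 10 genes and -0.01 over all genes tested. Over all genes, 0 of the 10 passed an adjusted p of 0.05 in edgeR's quasi-likelihood test, where 0.0141% of the tested genes did so. An unadjusted p under 0.05 was found for 5, all with a lower mean: Sparc, Postn, Tnc, Fbn1 and Loxl2. Of all genes tested, 7.59% were in that class with a lower mean and 5.22% with a higher mean. The same 5 genes had every knockout value below every wild-type value, as did 9.42% of the genes tested, and 0 had every knockout value above (8.81%). DESeq2 called 1 of the 10, Sparc; it called 2.03% of all genes, 1.33% lower and 0.699% higher. In turn, limma-voom called 0 (0% of all genes; 1695 had an unadjusted p under 0.05). Without wild-type 2 and knockout 2 the median was -0.99, 9 of 10 means were still lower and 0 genes were called in edgeR. In whole-liver RNA, fewer cells of a type and less RNA per cell cannot be told apart.

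**Figure D1:**
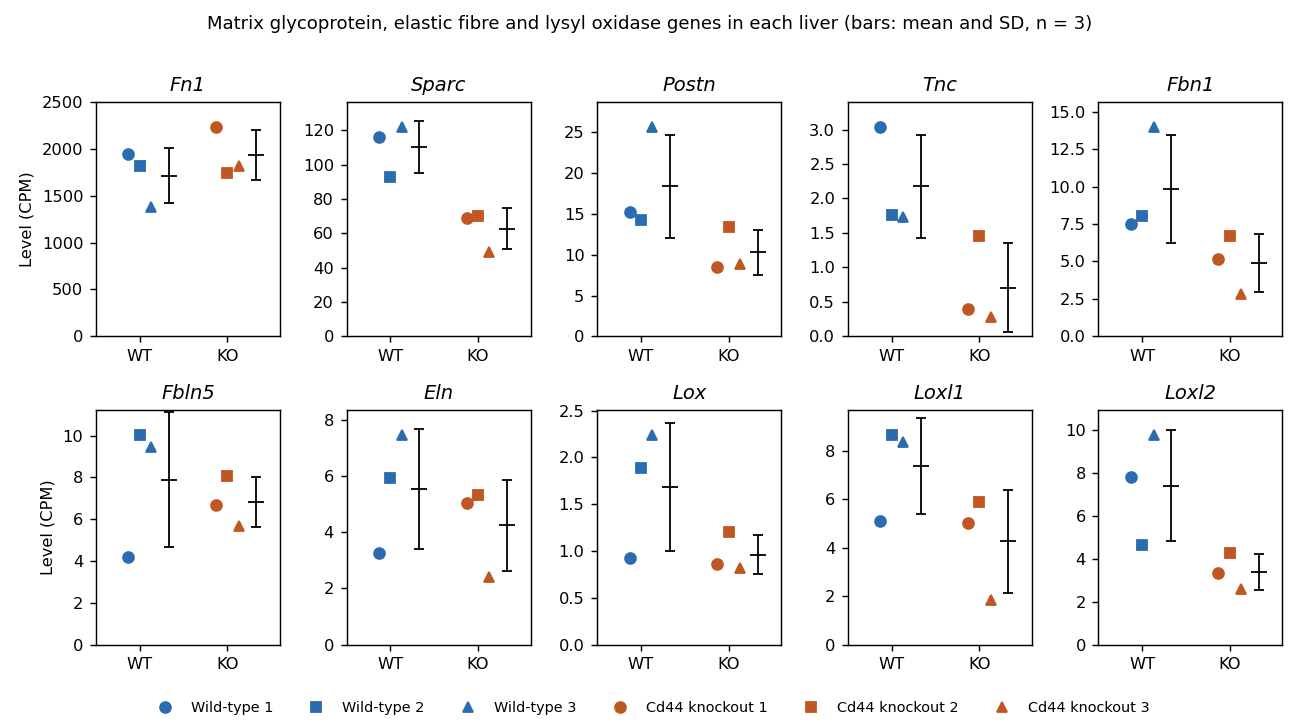
Level of each of the 10 genes in CPM (y axis, from 0, one scale per gene) in the 3 wild-type (WT, blue) and 3 Cd44 knockout (KO, orange) livers; symbols give the mouse number and black bars the mean and SD. Sparc, Postn, Tnc, Fbn1 and Loxl2 show no overlap between genotypes, whereas Fn1, Fbln5, Eln, Lox and Loxl1 do.

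Among the glycoproteins, Fn1 (ENSMUSG00000026193; chromosome 1, 71585520 to 71653200, minus strand) was by far the most abundant and gave no lower level in the knockout. It was at 1942, 1812 and 1379 CPM in wild-type mice 1, 2 and 3 and at 2235, 1746 and 1819 CPM in knockout mice 1, 2 and 3. The groups overlapped; the lowest value was that of wild-type 3 and the highest that of knockout 1. The means were 1711 ± 295 and 1933 ± 264 CPM (SD, n = 3 per genotype), with a log2 fold change of 0.18 ± 0.20 (SE; edgeR adjusted p = 0.789). It was 0.04 without wild-type 3, 0.28 without wild-type 1 and 0.29 without both libraries numbered 2.

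Sparc, which encodes a collagen-binding matricellular protein, had the smallest p of the 10 (ENSMUSG00000018593; chromosome 11, 55394500 to 55423183, minus strand). Its level was 116, 93.1 and 122 CPM in the wild-type and 68.8, 70.4 and 49.0 CPM in the knockout livers. Every wild-type liver lay above every knockout liver, with a gap between 93.1 and 70.4 CPM. The means were 110.4 ± 15.3 and 62.7 ± 11.9 CPM, a log2 fold change of -0.82 ± 0.18 (edgeR adjusted p = 0.217; DESeq2 adjusted p = 0.0103). The DESeq2 call was the sole one among the 10 genes. The log2 fold change stayed between -0.92 and -0.66 when single libraries were left out, the narrowest such range among the 9 genes with a lower mean, and was -1.01 without wild-type 2 and knockout 2.

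Postn, which encodes periostin (ENSMUSG00000027750; chromosome 3, 54361109 to 54391037, plus strand), was at 15.3, 14.3 and 25.7 CPM in wild-type, against 8.49, 13.5 and 8.90 CPM in knockout livers. Wild-type 3 was high, and wild-type 2 and knockout 2 lay next to each other. Its log2 fold change was -0.84 ± 0.28 (edgeR adjusted p = 0.290). Without wild-type 3 it was -0.51, and without both libraries numbered 2 it was -1.23.

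Tnc, which encodes tenascin-C (ENSMUSG00000028364; chromosome 4, 63959785 to 64047015, minus strand), had the lowest log2 fold change of the 10, on few reads. Counts were 56, 27 and 34 in wild-type and 6, 29 and 4 in knockout libraries, or 3.04, 1.76 and 1.73 CPM against 0.398, 1.45 and 0.274 CPM. Knockout 1 and 3 were low, and knockout 2 came close to wild-type 2 and 3. The log2 fold change was -1.52 ± 0.56 (edgeR adjusted p = 0.319), -2.67 without knockout 2, -1.17 without knockout 3 and -2.79 without both libraries numbered 2.

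Of the 3 elastic fibre genes, Fbn1 showed no overlap between genotypes, while Eln and Fbln5 did overlap. Fbn1, the fibrillin-1 gene (ENSMUSG00000027204; chromosome 2, 125300594 to 125507993, minus strand), was at 7.5, 8.02 and 13.99 CPM in wild-type, against 5.17, 6.70 and 2.81 CPM in knockout livers. The genotypes did not overlap; wild-type 3 was highest and knockout 3 lowest. The log2 fold change was -0.997 ± 0.363 (edgeR adjusted p = 0.314), with -0.64 without wild-type 3 and -1.43 without both libraries numbered 2. Fbn1 is the 1 gene of the 10 on the chromosome of Cd44, 22.4 Mb from it, so sequence inherited along with the targeted locus and the loss of Cd44 cannot be told apart for this gene.

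Eln, the elastin gene (ENSMUSG00000029675; chromosome 5, 134702593 to 134747323, minus strand), was at 3.26, 5.93 and 7.48 CPM in wild-type, against 5.04, 5.35 and 2.40 CPM in knockout livers. The genotypes overlapped, and the log2 fold change was -0.37 ± 0.39 (edgeR adjusted p = 0.758). It was -0.65 without wild-type 1, -0.07 without wild-type 3 and -0.53 without both libraries numbered 2. Fbln5, the fibulin-5 gene (ENSMUSG00000021186; chromosome 12, 101746565 to 101819055, minus strand), was at 4.18, 10.0 and 9.46 CPM against 6.70, 8.05 and 5.68 CPM. Its lowest value was in wild-type 1 and its highest in wild-type 2. The log2 fold change of -0.21 ± 0.33 (edgeR adjusted p = 0.859) was 0.01 without wild-type 2, -0.51 without wild-type 1 and -0.14 without both libraries numbered 2. The ratio of Eln to Fbn1 on the CPM per kilobase scale was 0.651, 1.11 and 0.801 in wild-type and 1.46, 1.196 and 1.28 in knockout livers. These values did not overlap, though wild-type 2 (1.11) and knockout 2 (1.196) lay close. The ratio is made from the Eln and Fbn1 levels given above and is no separate result. It was not tested, and no share over other gene pairs was computed. The ratio of Fbln5 to Eln overlapped between genotypes, at 1.48 to 1.98 in wild-type and 1.56 to 2.78 in knockout livers.

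The 3 lysyl oxidases all had lower means in the knockout, and Loxl2 alone of them showed no overlap between genotypes. Loxl2, which acts on collagen and is found with basement membranes and scar matrix (ENSMUSG00000034205; chromosome 14, 69609068 to 69695834, plus strand), was at 7.82, 4.63 and 9.77 CPM in wild-type, against 3.31, 4.25 and 2.60 CPM in knockout livers. Wild-type 2 was the lowest of its group and lay just above knockout 2. The means were 7.41 ± 2.60 and 3.39 ± 0.828 CPM, with a log2 fold change of -1.12 ± 0.32 (edgeR adjusted p = 0.237; DESeq2 adjusted p = 0.0679). It was -1.57 without wild-type 2 and knockout 2.

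Loxl1, the enzyme tied most closely to elastin (ENSMUSG00000032334; chromosome 9, 58287738 to 58313186, minus strand), was at 5.11, 8.67 and 8.40 CPM in wild-type, against 5.04, 5.90 and 1.85 CPM in knockout livers. Wild-type 1 lay between knockout 1 and 2, so the groups overlapped, and knockout 3 was far below the rest. The log2 fold change was -0.78 ± 0.41 (edgeR adjusted p = 0.487) with -0.42 without knockout 3 and -0.97 without both libraries numbered 2. Lox, the founding enzyme of the family (ENSMUSG00000024529; chromosome 18, 52516067 to 52529867, minus strand), was read 17, 29 and 44 times in wild-type and 13, 24 and 12 times in knockout libraries. At 0.923, 1.89 and 2.24 CPM against 0.862, 1.20 and 0.822 CPM the groups overlapped through wild-type 1. Its log2 fold change was -0.78 ± 0.42 (edgeR adjusted p = 0.492) with -0.48 without wild-type 3 and -0.91 without both libraries numbered 2.

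The makeup of the transcripts of these 3 lysyl oxidases overlapped between genotypes, while their summed CPM did not (13.9 to 20.4 CPM against 5.27 to 11.4 CPM). On the CPM per kilobase scale, Loxl1 held 56.4% ± 10.1 of the 3 in wild-type and 58.4% ± 10.7 in knockout livers, Loxl2 35.0% ± 11.9 and 31.3% ± 7.27, and Lox 8.66% ± 2.26 and 10.3% ± 3.42 (SD, n = 3). All 3 shares overlapped between genotypes. Loxl1 was the most abundant of the 3 in every liver, from 46.2% in knockout 3 to 67.7% in wild-type 2.

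**Figure D2:**
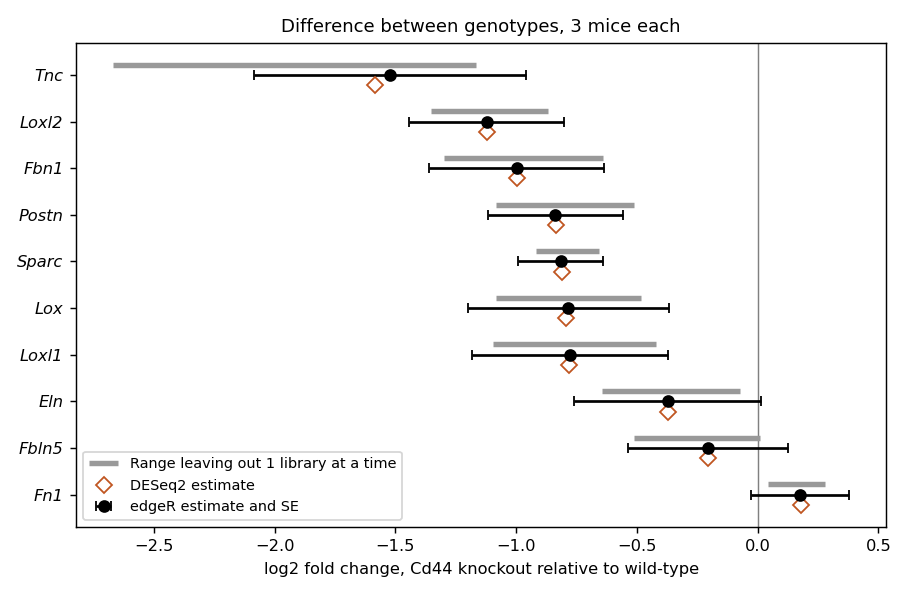
log2 fold change of knockout relative to wild-type (x axis) for each of the 10 genes; black points and bars give the edgeR estimate and its SE, open diamonds the DESeq2 estimate, and grey bars the range over fits that left out 1 of the 6 libraries. Sparc has the shortest grey bar of the genes with a lower mean, from -0.92 to -0.66, and Tnc the longest, from -2.67 to -1.17.

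Per kilobase of exon the genes spanned a wide range of levels in the same order at the top in both genotypes. In wild-type livers Fn1 was at 146 ± 25.2 CPM per kilobase and Sparc at 29.2 ± 4.05, and both stood clear of every gene below them. Loxl1 (2.24 ± 0.601), Postn (2.12 ± 0.727), Loxl2 (1.37 ± 0.480), Fbln5 (1.14 ± 0.467), Fbn1 (0.811 ± 0.298), Eln (0.686 ± 0.264), Lox (0.352 ± 0.143) and Tnc (0.280 ± 0.0963) followed, and the ranges of each pair of neighbours from Loxl1 down overlapped. In knockout livers Fn1 was at 165 ± 22.6 CPM per kilobase, Sparc at 16.6 ± 3.15 and Tnc, the lowest, at 0.0910 ± 0.0832. Fbln5 stood above Loxl2 there without overlap (0.986 ± 0.172 against 0.627 ± 0.153), and Eln above Fbn1, with overlapping ranges. The ratio of Sparc to Fn1 was 0.158 to 0.273 in wild-type and 0.0830 to 0.124 in knockout livers, without overlap. Fn1 made up 81.6%, 82.4% and 73.0% of the summed level of the 10 genes in wild-type and 89.0%, 85.4% and 90.4% in knockout livers, also without overlap. Both quantities are made from the gene levels given above and are no separate results. They were not tested, and no share over other genes was computed.

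**Figure D3:**
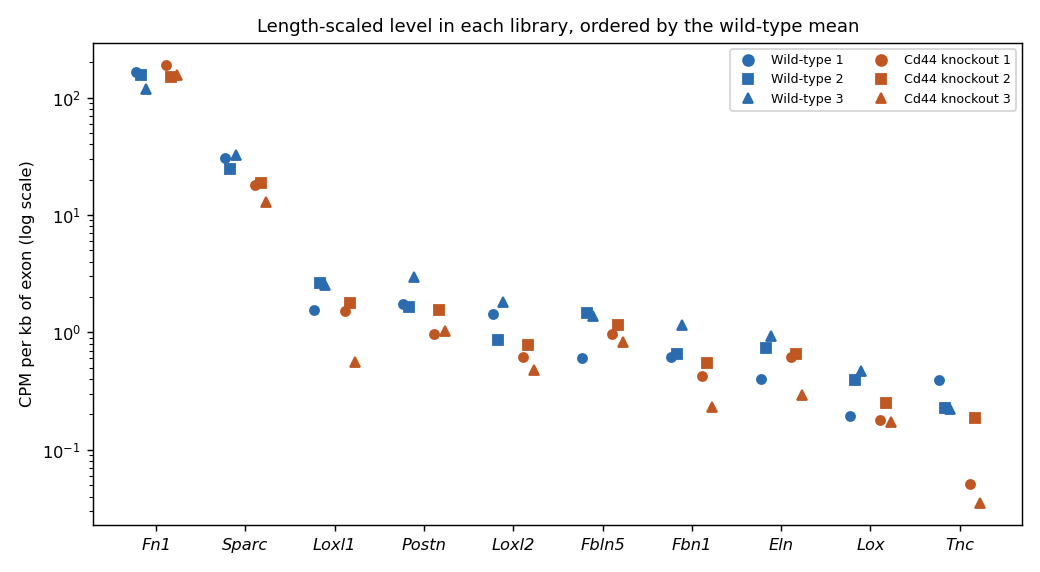
Level of each gene in CPM per kilobase of exon (y axis, log scale) in each of the 6 livers, ordered by the wild-type mean; blue is wild-type, orange Cd44 knockout, and symbols give the mouse number. Fn1 and Sparc stand above all others in both genotypes, and the 8 genes from Loxl1 down overlap with their neighbours in wild-type livers.

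The livers of 1 genotype differed among themselves. Wild-type 3 had the highest value of all 6 livers for 6 of the 10 genes and knockout 3 the lowest for 7. Knockout 2 was the highest of the knockouts for 9 of the 10 genes, Fn1 excepted, and yet lay below wild-type 2 for all 10. It lay below wild-type 1 for 6 genes. Deviations from the mean of the 6 libraries on the log2 CPM scale had a median over the 10 genes of 0.14, 0.32 and 0.68 in wild-type 1, 2 and 3 and of -0.30, 0.02 and -0.81 in knockout 1, 2 and 3. Coefficients of variation ran from 13.9% (Sparc) to 40.9% (Fbln5) in wild-type and from 13.6% (Fn1) to 91.4% (Tnc) in knockout livers.

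Markers of the cells that make or neighbour these proteins are set beside this. The 10 hepatic stellate cell markers, which included Lrat, Reln and Pdgfrb, had a median log2 fold change of -0.22, with 6 of 10 lower in mean and summed levels of 260 to 306 CPM in wild-type, against 237 to 286 CPM in knockout livers. Pdgfrb, the PDGF receptor of stellate cells and pericytes, was at 20.8, 21.3 and 22.7 CPM against 16.3, 16.3 and 9.04 CPM (log2 fold change -0.64 ± 0.22, edgeR adjusted p = 0.304). It was the 1 stellate marker of 10 without overlap, where 9.42% of all genes tested had every knockout value below every wild-type value. Ngfr had the lowest log2 fold change, at -1.06 ± 0.43 (edgeR adjusted p = 0.371). Des (-0.46), Lrat (-0.30), Hgf (-0.24) and Rgs5 (-0.20) were also lower in mean. Means were higher for Hand2 (0.19), Colec11 (0.15), Reln (0.12) and Pdgfra (0.03). Reln, a secreted glycoprotein of quiescent stellate cells, was at 68.5, 65.6 and 47.3 CPM against 65.9, 68.9 and 62.4 CPM.

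Macrophage markers had the lowest median of the marker lists. All 8 had a lower mean (51.1% of all genes tested), with a median of -1.40. Of the 8, 5 were lower without overlap (9.42% of all genes tested) and 7 had an unadjusted edgeR p under 0.05 with a lower mean (7.59%). After adjustment edgeR called 0 (0.0141%) and DESeq2 called 4 lower (1.33%), while DESeq2 called 0 in each other marker list. Summed levels of the macrophage markers were 242 to 769 CPM in wild-type, against 216 to 227 CPM in knockout livers. Wild-type 1 and 3 were high, and wild-type 2, at 242 CPM, lay near the knockouts. The 4 tested cholangiocyte markers were all lower in mean, with a median of -0.57 and summed levels of all 5 at 12.5 to 16.5 CPM against 8.40 to 10.9 CPM. The smooth muscle list (5 of 6 lower in mean, median -0.66) overlapped between genotypes in summed level. Of its 6 tested genes, 2 were lower in the knockout without overlap, as were 9.42% of all genes tested. Smtn was at 9.45, 13.2 and 10.8 CPM against 5.90, 8.30 and 4.52 CPM (log2 fold change -0.83 ± 0.25, edgeR adjusted p = 0.257). Tagln gave -0.86 ± 0.43 (0.459) on 4 to 14 counts per library. Summed levels also overlapped for the portal fibroblast list (4 of 5 lower in mean, median -0.25, 14.7 to 45.7 CPM against 16.0 to 35.5 CPM), mesothelial list (4 of 5, -0.27, 4.45 to 19.4 against 2.94 to 12.8 CPM) and endothelial list (5 of 9, -0.13, 184 to 410 against 213 to 312 CPM). Upk1b and Msln, mesothelial markers, had 0 counts in knockout 3, Clec3b in wild-type 1, and Cftr of the cholangiocyte list in knockout 3. Hepatocyte markers had a median of 0.09 (2 of 8 lower in mean). The part of any of these markers in the lower matrix levels was not tested.

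**Figure D4:**
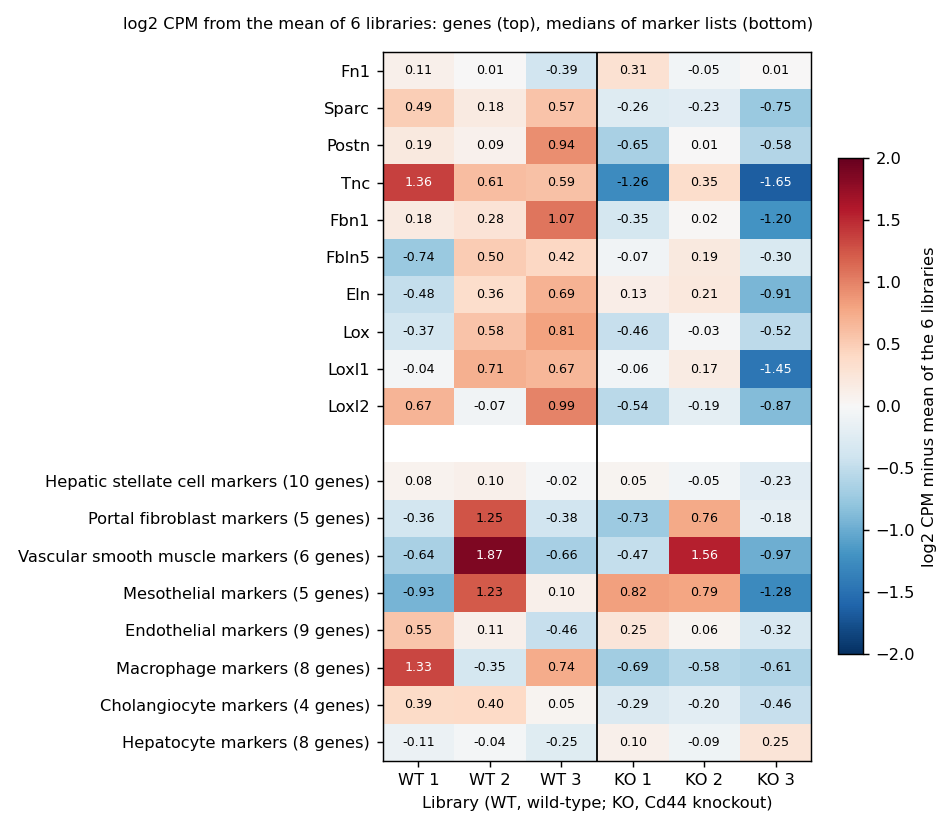
Deviation of log2 CPM from the mean of the 6 libraries (colour and printed value) for the 10 genes (top) and the median deviation of each marker list (bottom), with libraries on the x axis (WT, wild-type; KO, Cd44 knockout) and the number of tested genes in brackets. Smooth muscle markers are high in WT 2 (1.87) and KO 2 (1.56), as are portal fibroblast markers (1.25 and 0.76). Macrophage markers are high in WT 1 (1.33) and WT 3 (0.74), and most matrix genes are lowest in KO 3.

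Among the remaining 70 genes of the same matrix systems, listed by role, 63 were tested; 52 were lower in mean, and the log2 fold changes of all 63 had a median of -0.40. Of these, 0 passed in edgeR (18 had an unadjusted p under 0.05, all lower), and DESeq2 called 5, all lower. Over all genes tested, 51.1% were lower in mean and 0.0141% passed in edgeR. An unadjusted p under 0.05 with a lower mean was found for 7.59%, and DESeq2 called 1.33% lower.

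The fibrillar collagens, the main substrates of the lysyl oxidases, had the lowest median of these lists, at -1.08 with 6 of 6 lower in mean. Col5a1 (21.2 ± 3.63 against 10.8 ± 1.70 CPM; log2 fold change -0.98 ± 0.18, edgeR adjusted p = 0.217) and Col3a1 (75.6 ± 38.3 against 27.3 ± 12.8 CPM; -1.47 ± 0.46, edgeR adjusted p = 0.277) were called by DESeq2 (adjusted p = 0.00462 and 0.0155). Col1a1 was at 25.6, 35.4 and 78.0 CPM against 17.5, 28.0 and 10.8 CPM, with overlap (log2 fold change -1.30 ± 0.50, edgeR adjusted p = 0.356; DESeq2 adjusted p = 0.0667). Summed per kilobase, the 6 collagens were at 14.5, 20.003 and 35.5 CPM per kilobase in wild-type and 9.38, 14.1 and 7.22 in knockout livers, without overlap. Set against that sum, Lox, Loxl1 and Loxl2 together did not separate by genotype. Their summed level was 18.4 ± 4.34 per 100 of collagen in wild-type and 20.5 ± 3.998 in knockout livers. Loxl3 and Loxl4 were not part of this sum. Sparc, at 90.9 to 212 per 100 of collagen in wild-type and 132 to 194 in knockout livers, overlapped too.

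Of the other crosslinking and lysine-modifying enzymes, 8 of 9 tested had a lower mean (median -0.23). Loxl4, a further lysyl oxidase, was at 8.80, 4.17 and 6.97 CPM in wild-type, against 2.92, 2.65 and 2.33 CPM in knockout livers, without overlap, and was called by DESeq2 (log2 fold change -1.34 ± 0.31; edgeR adjusted p = 0.217, DESeq2 adjusted p = 0.0180). Loxl3 was at 3.31 to 3.85 CPM against 2.60 to 3.50 CPM and overlapped. Pcolce, the enhancer of procollagen C-proteinase, gave -0.58 ± 0.22 (edgeR adjusted p = 0.330), the transglutaminase Tgm1 -0.81 ± 0.28 (0.298) and Bmp1, the proteinase that activates lysyl oxidase precursors, -0.06 ± 0.13 (0.898).

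Other elastic fibre and microfibril genes had a median of -0.18 (11 of 14 lower in mean). Efemp2, the fibulin-4 gene, whose protein brings lysyl oxidase to elastin, was at 5.92, 6.26 and 6.67 CPM against 4.11, 4.45 and 3.49 CPM (log2 fold change -0.64 ± 0.20, edgeR adjusted p = 0.263), the 1 tested gene of this list without overlap. Of all genes tested, 9.42% were lower in the knockout without overlap. Emilin2 gave -1.15 ± 0.35 (0.254) and Mfap2, a microfibril protein, -0.86 ± 0.52 (0.549). Fbln1, chosen after its values were seen, was high in the same 2 libraries as the smooth muscle markers, at 10.4 CPM in wild-type 2, 5.20 CPM in knockout 2 and 0.706 to 1.79 CPM elsewhere.

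Other matricellular genes had a median of -0.32 (9 of 11 lower in mean). Thbs1, the thrombospondin-1 gene, was at 11.7, 6.45 and 7.94 CPM against 3.31, 1.95 and 0.822 CPM (log2 fold change -2.10 ± 0.44, edgeR adjusted p = 0.217), and Spp1, the osteopontin gene, at 36.4, 52.6 and 42.3 CPM against 25.5, 22.9 and 18.1 CPM (-0.98 ± 0.18, edgeR adjusted p = 0.217). Both were called by DESeq2 (adjusted p = 0.00102 and 0.00215). Ccn2 gave -0.76 ± 0.46 (edgeR adjusted p = 0.558), with wild-type 2 the highest at 18.9 CPM.

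Other adhesive glycoproteins had a median of -0.45 (10 of 14 lower in mean). Nid1 and Nid2, the basement membrane nidogens, gave -1.06 ± 0.37 and -0.87 ± 0.30 (edgeR adjusted p = 0.306 and 0.301), and Lama5, a laminin chain, -0.69 ± 0.26 (0.322). Nid1 reached 162 and 209 CPM in wild-type 1 and 3 and 60.3 to 83.1 CPM in the other 4 livers. The fibronectin and tenascin receptors had a median of -0.25 (8 of 9 lower in mean), with Itga4 at -0.69 ± 0.26 (edgeR adjusted p = 0.327), Itgb3 at -0.85 ± 0.37 (0.397) and Itgav at -0.40 ± 0.18 (0.406).

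**Figure D5:**
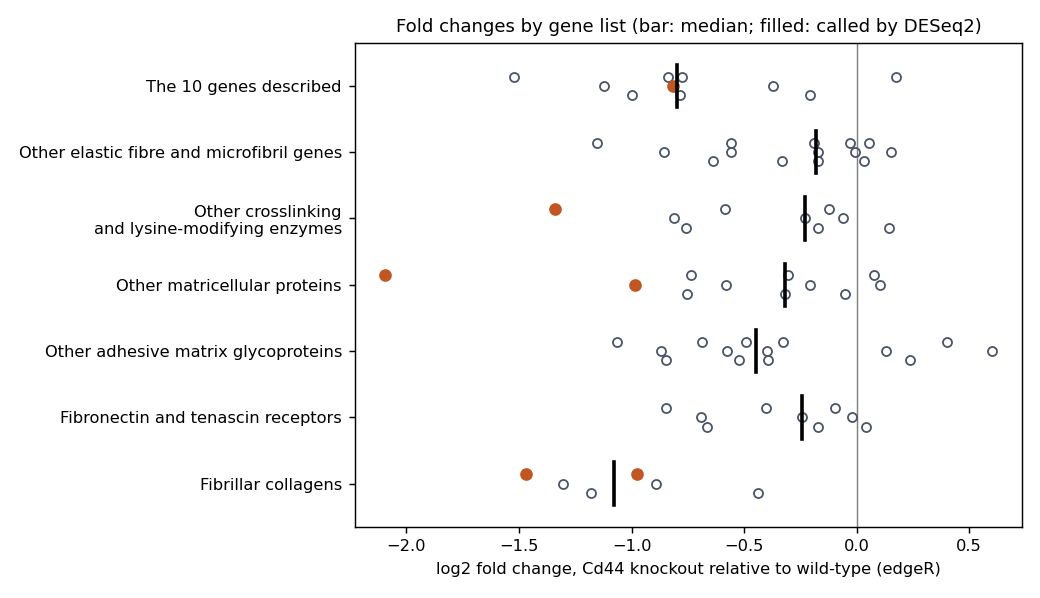
log2 fold change of knockout relative to wild-type (x axis, edgeR) of every tested gene in the 10 genes described and in 6 further lists (rows); vertical bars mark list medians and filled points genes called by DESeq2. The medians lie at -0.80 for the 10 genes and -1.08 for the fibrillar collagens, and between -0.45 and -0.18 for the other 5 lists.

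The genes whose profile over the 6 libraries lay closest to that of a member were sought among 11177 protein-coding genes by the root mean square difference of centred log2 CPM. Fn1 lay closest to Plbd1 and to Hc, the complement C5 gene (0.051 each), against a spread of 0.21 of Fn1 about its own mean. Sparc lay closest to Irf8, a transcription factor of myeloid cells (0.076), and Gla, the lysosomal galactosidase (0.078), with a spread of 0.46. Loxl2 lay closest to Laptm5, a lysosomal membrane protein of leukocytes (0.085), and Evl (0.090), with a spread of 0.65. Laptm5 itself was at 42.9, 26.7 and 59.7 CPM in wild-type, against 18.1, 21.9 and 15.4 CPM in knockout livers. Loxl1 lay closest to Fstl1, a secreted glycoprotein of mesenchymal cells (0.13), and Prss23 (0.20); Fbn1 to Mvb12b (0.12) and Atp8b4 (0.13); and Postn to Pygb (0.087) and Poc1a (0.096). Eln lay closest to Wnt4 (0.15) and Adamts2, a procollagen N-proteinase (0.15), and Fbln5 to Ifi27l2a (0.097) and Tcea2 (0.12). Among the 10 genes themselves, Sparc and Loxl2 lay closest to each other (0.25), then Postn and Loxl2 (0.26), and Fn1 and Tnc lay farthest apart (1.17). With 6 libraries, these distances describe likeness and carry no test.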

How the data were processed

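Liver RNA was sequenced from 6 mice, 3 per genotype, grouped by the titles in the labels. The deposited values are raw read counts per Ensembl gene, as made by the authors, with no normalisation. The tools featureCounts 1.5.0-p3, HISAT2 2.0.5 and StringTie 1.3.3b and the build GRCm38.p6 are listed, per the submitters' processing notes. No source used here gives the annotation release or the strand setting. The 10 genes share exons with few other gene models, which held at most 19 counts over the 6 libraries; 1 antisense model overlapping Lox is not in the table. Of 54682 rows, 54495 matched GENCODE M21; 150 unnamed gene models (0.273% to 0.509% of counts) were left out.

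In R 4.3.3, edgeR 4.0.16 (filterByExpr, TMM scaling, robust quasi-likelihood F test with legacy = FALSE) compared the genotypes, with p values adjusted over 14145 genes (Benjamini-Hochberg, threshold 0.05); DESeq2 1.42.0 and limma-voom 3.58.1 were alternatives. Standard errors are the log2 fold change over the square root of F. CPM use TMM-scaled library sizes; per-kilobase levels use the merged exon length. The fits were tested on simulated data. An exact permutation test between 3 and 3 mice has a smallest p of 0.1, and none was used.

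The genes and lists were chosen with earlier results of these data known. Named genes were the 10 members, Cd44, the 3 smallest p values and every called gene of each further list, and the 2 nearest profiles of each member with mean log2 CPM of at least 1; the marker genes named and Loxl3, Bmp1 and Fbln1 fall outside this rule and were chosen after their values were seen. Alternatives were other scalings, other filters, mouse number as a block, other fits and leaving out libraries.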

Additional observations from a re-analysis of the deposited data

How the results depend on the processing

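Of 160 values of the 10 genes under 16 alternatives, 158 kept their direction and side of the threshold. Sparc passed in DESeq2 (-0.81), which raised the members called from 0 to 1, and Fbln5 changed sign without wild-type 2 (0.007799; lowest -0.51 without wild-type 1). The median of the 10 genes ranged from -1.04 (without knockout 2) to -0.58 (without wild-type 3), 8 or 9 of the 10 had a lower mean, and 0 were called when any 1 library was left out. Genes called over all genes numbered 2 in edgeR, 287 in DESeq2, 0 in limma-voom (1695 had an unadjusted p under 0.05), 6 with no low-count filter, 1 with the older quasi-likelihood fit, 5 without both libraries numbered 2, and 0 to 151 when 1 library was left out (151 without wild-type 2, 1 without knockout 1, 0 without knockout 2 or 3). The older fit and the removal of both libraries numbered 2 were chosen after seeing the data. The log2 fold change of Cd44 was -9.00 in limma-voom (adjusted p = 0.283) and -11.73 to -9.20 when 1 library was left out, and lost its call without any 1 knockout library. The causes were not tested.

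With the mouse number as a replicate block 1 gene was called over all genes and 0 of the 10. The labels do not say that the numbers pair the mice. Deviations of same-numbered mice correlated at -0.0164, -0.0175 and -0.01 across genes, and those of differently numbered mice at -0.0649 to 0.0789. Correlations over all genes cannot exclude a feature shared by same-numbered mice in some genes, such as the smooth muscle markers. Tnc and Lox rest on 4 to 56 counts per library, which limits their precision.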
